A study of Mus musculus with 22 samples.

Results

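Footprints of the RNA-binding protein hnRNP A1 were examined in 9 genes whose products sit on the surface of microglia and other leukocytes: Csf1r, Cx3cr1, P2ry12, Tmem119, Trem2, Tyrobp, Itgam, Itgb2 and Ptprc. The genes were chosen by name, with earlier results of these data known. A footprint was counted when it overlapped the annotated span of a gene (GRCm38, GENCODE release M21) by at least 1 nt. The 9 genes were among 13948 genes with a footprint in any mouse, and they held 112 of the 136207 footprints. Footprints are stretches of RNA recovered by CLIPseq, in which tissue is irradiated with UV light to bind proteins to RNA, the protein is immunoprecipitated and the attached RNA is sequenced.

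The tissue was spinal cord of female wild-type C57Bl/6 mice, with 3 naïve mice, 3 mice with mild experimental autoimmune encephalomyelitis (EAE) and 4 mice with severe EAE, and 1 immunoprecipitation library from each mouse. EAE is a model of multiple sclerosis, here induced with a peptide of myelin oligodendrocyte glycoprotein in complete Freund's adjuvant together with pertussis toxin, and EAE mice were killed 15 days after onset. The age at immunization is 12 weeks in the sample records and 8 weeks in the design text of the series. Mice carry the numbers of their labels. Mild EAE mice 3 and 4 had a clinical score of 1.5 and mouse 7 a score of 1.0, and severe EAE mice 1 and 5 scored 2.5 and mice 2 and 6 scored 3.0.

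Microglia are the resident macrophages of the central nervous system. They depend on signals through the receptor Csf1r, sense neurons through the fractalkine receptor Cx3cr1 and extend processes toward purines through P2ry12. Trem2 binds lipids and lipoproteins and signals through the adaptor Tyrobp, also called DAP12. Itgam and Itgb2 encode the paired chains of the integrin Mac-1, and Ptprc encodes CD45, a phosphatase on nearly all leukocytes. In EAE, monocytes and lymphocytes enter the spinal cord and resident microglia become activated, so that several of these genes are shared by resident and infiltrating cells.

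The length of the lists differed widely. Naïve mice had 17119 to 17494 footprints, mild EAE mice 9751 to 24433 and severe EAE mice 209 to 31870. Severe EAE mouse 5 stood apart with 31870 footprints, whereas severe EAE mice 1, 2 and 6 had 2670, 209 and 673. A list of 209 footprints can show few genes, and counts of genes that change without severe EAE mouse 5 are given with and without it. The number of reads behind a footprint is not in the lists, so the depth of each footprint is unknown.

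No naïve mouse had a footprint in an exon of any of the 9 genes. A footprint was called exonic when its midpoint lay in an annotated exon of the gene. The number of the 9 genes with an exonic footprint was 0 in each naïve mouse. Mild EAE mice 3, 4 and 7 had such footprints in 5, 2 and 6 genes, and severe EAE mice 1, 2, 5 and 6 in 2, 0, 7 and 2 genes. The mild EAE mice all lay above the naïve mice, and severe EAE mouse 2, with the shortest list, was at the naïve value. In the same naïve mice, 29.8%, 38.3% and 35.5% of the 11189 genes with an exonic footprint in any mouse had one. Among these 11189 genes, mild EAE mouse 3 showed 37.7%, mouse 4 showed 25.2% and mouse 7 showed 51.3%. Severe EAE mouse 5 reached 60.2%, against 9.74%, 0.795% and 3.5% for mice 1, 2 and 6. Mild EAE mouse 4, with 2 of the 9 genes, therefore had no larger a share of them than of all genes. Exonic footprints of the 9 genes covered 1898, 196 and 2314 nt for mild EAE (mice 3, 4 and 7). For severe EAE (mice 1, 2, 5 and 6) they covered 128, 0, 3670 and 77 nt. Per 1000000 covered nt of the mouse, this was 1226, 169 and 775 nt in mild EAE. In severe EAE it was 388, 0, 886 and 1013 nt. The values of mild EAE mouse 4 and severe EAE mice 1 and 6 rest on 2 exonic footprints each.

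Of the 9 genes, 6 had an exonic footprint in at least 2 EAE mice and in no naïve mouse: Csf1r, Cx3cr1, Trem2, Tyrobp, Itgam and Itgb2. The same held for 13.1% of all genes with an exonic footprint and for 12.4% of the protein-coding ones. Against mild EAE alone, 5 of the 9 genes had an exonic footprint in at least 2 mice and in no naïve mouse, with 6.14% of all genes. In the opposite direction, none of the 9 genes had an exonic footprint in 2 or more naïve mice but in no EAE mouse, with 1.76% of all genes, and none had one in 2 or more naïve mice but in no mild EAE mouse, with 3.23%. Without severe EAE mouse 5, 5 of the 9 genes kept the pattern over EAE mice, all but Trem2, and 6.95% of all genes had it. The same 5 genes kept it without mild EAE mouse 7, with 8.13% of all genes. The count over mild EAE mice alone fell to 2 without mouse 3, to 4 without mouse 4, which loses Cx3cr1, and to 1 without mouse 7.

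Counted over whole gene spans, introns included, 5 of the 9 genes had a footprint in at least 2 EAE mice and in no naïve mouse, with 10.5% of all genes, and 4 of the 9 in at least 2 mild EAE mice and in no naïve mouse, with 5.01%. Cx3cr1 was lost here, since its span held footprints of naïve mice that lay outside its exons. In bulk spinal cord, fewer cells of a type and less RNA per cell cannot be told apart, and the lists carry no RNA level of these genes. The lists were made after sites of the matched input had been removed.

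**Figure D1:**
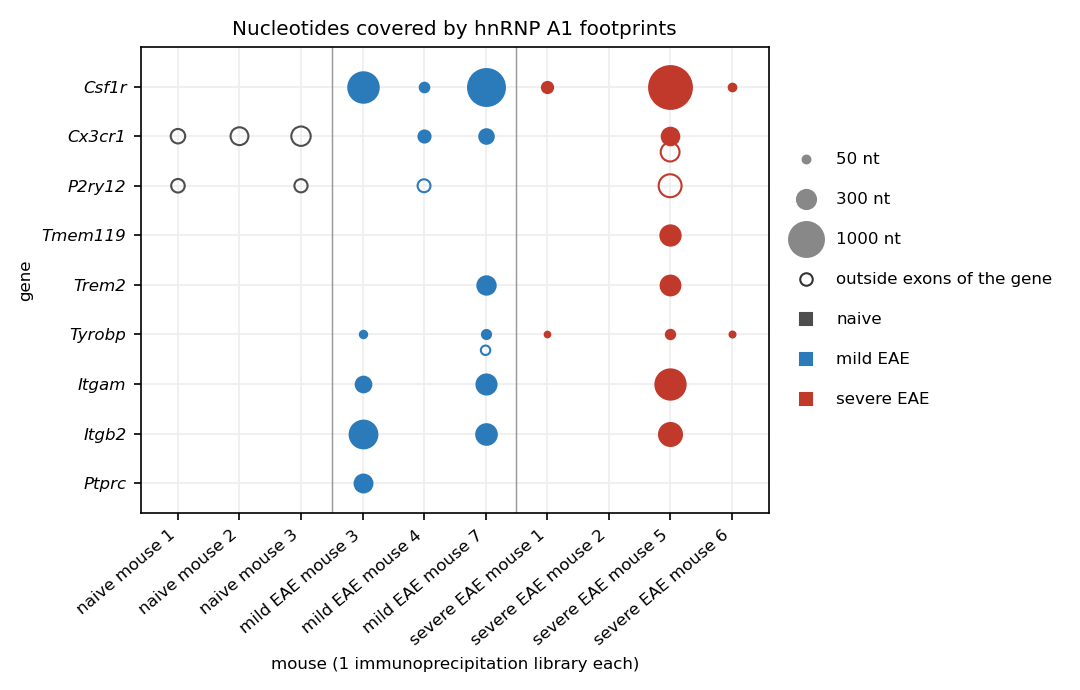
Nucleotides covered by footprints in each of the 9 genes (rows) in each of the 10 mice (columns), with the area of a circle proportional to the nucleotides covered. Filled circles are footprints with the midpoint in an exon of the gene and open circles all others; the naïve mice have only open circles, in Cx3cr1 and P2ry12, and Csf1r and Tyrobp are filled in 6 and 5 of the 7 EAE mice.

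Csf1r, the receptor for the growth factors Csf1 and Il34, had exonic footprints in more mice than any other member, 6 of the 7 EAE mice. It lies on chromosome 18 (plus strand, 61100598 to 61132149). Its exonic footprints covered 761, 76 and 1119 nt for mild EAE mice 3, 4 and 7, with 102, 0, 1504 and 48 nt for severe EAE mice 1, 2, 5 and 6, against 0 nt in each naïve mouse. All mild EAE mice lay above all naïve mice, as in 2.9% of all genes with an exonic footprint, and 3 of the 4 severe EAE mice did as well. A footprint in all 3 mild EAE mice and in no naïve mouse was found for 1.2% of these genes. The mean was 652 ± 530 nt (SD, n = 3) in mild EAE and 413.5 ± 728.2 nt (SD, n = 4) in severe EAE. Without severe EAE mouse 5, the severe EAE values were 102, 0 and 48 nt.

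The exact permutation test gave a two-sided p of 0.1 for mild EAE against naïve mice, the smallest that 3 against 3 mice allow, 0.543 for severe EAE and 0.158 for all EAE mice. None passed after Benjamini-Hochberg adjustment over all genes, with an adjusted p of 1 in each exonic comparison.

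The 38 Csf1r footprints, none of which overlapped another gene, were spread along the mature transcript. In mild EAE, 22 lay in coding sequence and 1 in the 3′ UTR, and in severe EAE 12 in coding sequence, 2 in the 5′ UTR and 1 in the 3′ UTR. Together they covered 58.4% of the 3870 nt of the reference transcript Csf1r-201 and touched 17 of its 22 exons. Of the 2261 nt covered, 1209 were covered in at least 2 mice. A stretch of 76 nt at the end of exon 21 was covered in 4 EAE mice, more than any other stretch of the 9 genes. Mild EAE mice 4 and 7 and severe EAE mouse 5 covered at least 75 nt of it and mild EAE mouse 3 its last 26 nt. In exon 2, a stretch of 102 nt with its midpoint in the 5′ UTR was shared by severe EAE mice 1 and 5. The single footprint of severe EAE mouse 6, 48 nt in exon 19, overlapped none of the others.

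**Figure D2:**
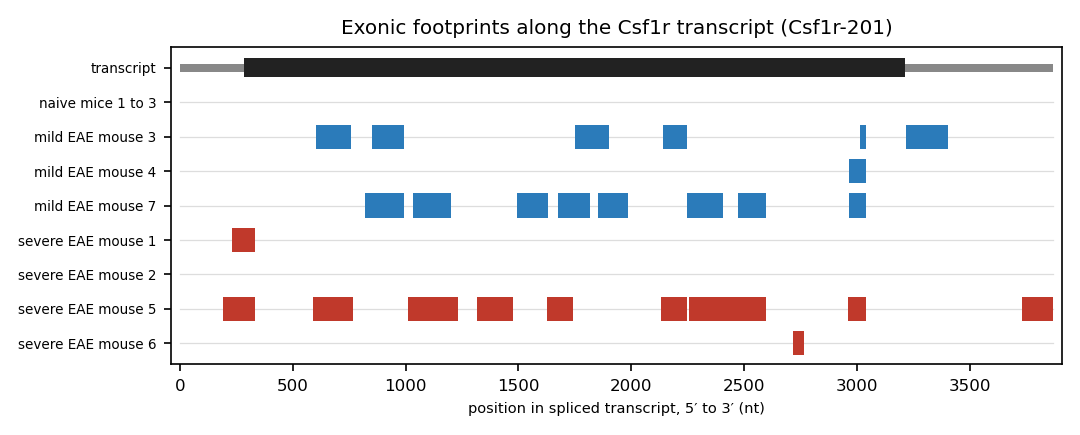
Exonic footprints along the spliced transcript Csf1r-201, with position in nt on the horizontal axis and 1 row for each EAE mouse. The black bar is the coding sequence and the grey bars are the UTRs; footprints of mild EAE mice 3 and 7 and severe EAE mouse 5 run along most of the transcript, the naïve row is empty, and 4 mice share the block near the end of the coding sequence.

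Cx3cr1, the receptor for the neuronal chemokine fractalkine, had footprints in all naïve mice when its whole span was counted, but none of them in its exons. The span (chromosome 9, minus strand, 119901616 to 120069879) is long because the annotated isoform Cx3cr1-202 reaches across other genes on the plus strand. Covered nt over the span were 172, 261 and 309 for naïve mice 1, 2 and 3, with 120 and 173 for mild EAE mice 4 and 7, 545 in severe EAE mouse 5 and 0 in the other 4 EAE mice. Of the 10 naïve footprints, 4 lay in exons of Wdr48 and 5 in exons of Ttc21a, both on the opposite strand, and 1, in naïve mouse 3, lay in an intron of Cx3cr1 with no other gene. The lists give no strand. All 9 naïve footprints in Wdr48 or Ttc21a began or ended exactly at an exon end of those genes, and none at an exon end of Cx3cr1.

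In exons of Cx3cr1, footprints covered 120 nt in mild EAE mouse 4, 173 nt in mild EAE mouse 7 and 253 nt in severe EAE mouse 5, with 0 nt in the other 7 mice. All 3 footprints lay in exon 2 of Cx3cr1-201, 1 of them in the 3′ UTR and 2 in coding sequence, and no nucleotide was shared between mice. The difference between EAE and naïve mice thus changed sign with the footprints counted, from −127.6 nt over the span to 78 nt in exons, and neither passed the exact permutation test (p = 0.35 and 0.417, adjusted p = 1 for both).

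P2ry12, a purine receptor of resting microglia, had no footprint in its own exons in any mouse. Its span (chromosome 3, minus strand, 59216272 to 59262871) lies within Med12l, a Mediator subunit gene on the plus strand. Covered nt over the span were 151, 0 and 143 in naïve mice 1, 2 and 3, 137 in mild EAE mouse 4 and 432 in severe EAE mouse 5, with 0 in the other 5 mice. All 10 footprints lay in exons of Med12l and in introns of P2ry12. A pair of stretches, 65 nt and 78 nt long, was covered in whole or in part in the same 4 mice, naïve mice 1 and 3, mild EAE mouse 4 and severe EAE mouse 5. In each of these mice the first ended exactly at the end of Med12l exon 26 and the second began exactly at the start of exon 27. They are shown on the plus strand, with TAG (UAG in RNA, a sequence hnRNP A1 is known to bind) in capitals, because they carry the P2ry12 signal of these lists (GRCm38, chr3:59252331-59252395 and chr3:59255818-59255895).
Med12l exon 26 stretch: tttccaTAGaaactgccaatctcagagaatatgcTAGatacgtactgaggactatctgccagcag
Med12l exon 27 stretch: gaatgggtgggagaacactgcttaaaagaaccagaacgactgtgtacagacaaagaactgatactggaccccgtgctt
Over the whole of Med12l, exonic footprints covered 474, 0 and 319 nt in the naïve mice, 296, 137 and 310 nt in mild EAE mice 3, 4 and 7 and 905 nt in severe EAE mouse 5. Over the P2ry12 span, the exact permutation test gave p = 0.9 for all EAE against naïve mice (adjusted p = 1).

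**Figure D3:**
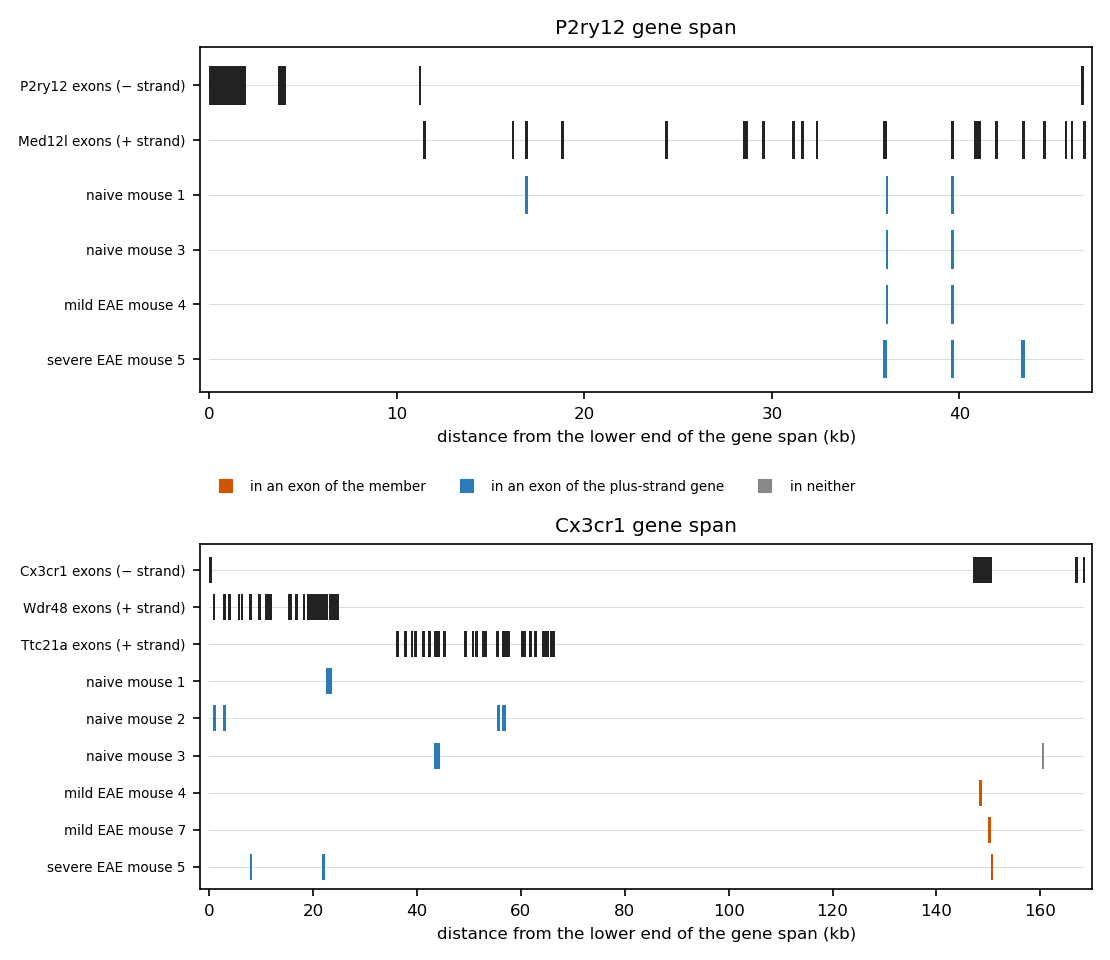
Exons (black) and footprints (coloured, 1 row per mouse with a footprint) in the gene spans of P2ry12 and Cx3cr1, by distance in kb from the lower end of the span. Blue footprints lie in exons of plus-strand genes, orange ones in exons of Cx3cr1 and the grey one in neither; P2ry12 exons hold none, and the naïve mice have no orange footprint.

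Tmem119, a membrane protein used to tell resident microglia from infiltrating macrophages, had footprints in 1 mouse. Severe EAE mouse 5 had 194 nt in the 3′ UTR and 142 nt in the coding sequence of exon 2, 336 nt in all, and the other 9 mice had 0 nt. Of all genes with an exonic footprint, 1172 had theirs in this mouse alone, Tmem119 included.

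Trem2 and its adaptor Tyrobp form the immunoreceptor pair of the list. Trem2 (chromosome 17, plus strand, 48346401 to 48354147) had 276 nt covered in mild EAE mouse 7 and 321 nt in severe EAE mouse 5, and 0 nt in the other 8 mice. The footprints of both mice lay in the same place, in exon 2, with starts 3 nt apart. They shared 273 of the 324 nt covered. This stretch, chr17:48348529-48348801 of GRCm38 on the plus strand, is shown because it is the longest stretch that EAE mice shared in the 9 genes, and it holds no TAG and 2 AGGT.
Trem2 exon 2 stretch: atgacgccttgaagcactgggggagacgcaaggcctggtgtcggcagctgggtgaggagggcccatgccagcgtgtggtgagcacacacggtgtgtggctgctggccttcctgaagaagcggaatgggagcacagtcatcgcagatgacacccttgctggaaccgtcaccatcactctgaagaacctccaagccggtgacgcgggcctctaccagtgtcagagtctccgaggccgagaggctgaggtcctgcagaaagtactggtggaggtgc
In severe EAE mouse 5 a second footprint of 42 nt began at the start of exon 3, directly after one that ended at the end of exon 2. The exact permutation test gave p = 0.533 for EAE against naïve mice, with an adjusted p of 1.

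Tyrobp (chromosome 7, plus strand, 30413760 to 30417585) was covered in more EAE mice than any member but Csf1r. Covered nt in its exons were 44, 0 and 68 for mild EAE mice 3, 4 and 7 and 26, 0, 71 and 29 for severe EAE mice 1, 2, 5 and 6, with 0 in each naïve mouse. The 2 EAE mice without a footprint, mild EAE mouse 4 and severe EAE mouse 2, overlapped with the naïve group. The means were 37.33 ± 34.49 nt (SD, n = 3) in mild EAE and 31.5 ± 29.38 nt (SD, n = 4) in severe EAE. The exact permutation test gave p = 0.117 for all EAE mice, 0.4 for mild EAE and 0.143 for severe EAE against naïve mice, with an adjusted p of 1 for each. In exons, 1 other gene, Pdia3, had footprints in exactly the same 5 mice, and over whole gene spans none did. Csf1r and Tyrobp were also the members found in severe EAE mice 1 and 6, in whose lists 9.74% and 3.5% of all genes with an exonic footprint appeared.

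Tyrobp footprints were 24 to 73 nt long, and those of different mice met in exons 2 and 4. Exon 4, 44 nt, was covered from end to end in mild EAE mice 3 and 7 and over its first 26 nt in severe EAE mouse 1 (chr7:30415632-30415675, plus strand).
Tyrobp exon 4: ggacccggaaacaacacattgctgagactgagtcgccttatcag
Exon 2, only 27 nt long, was covered in whole in severe EAE mice 5 and 6 and in mild EAE mouse 7. In mild EAE mouse 7 the footprint reached a further 46 nt into the upstream intron, which put its midpoint outside the exon. That footprint, chr7:30414296-30414368, is shown with the exon in capitals and the intron in lower case.
Tyrobp intron 1 and exon 2: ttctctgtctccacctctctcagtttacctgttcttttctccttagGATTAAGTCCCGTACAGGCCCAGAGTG
Severe EAE mouse 6 also had 2 intronic nt before the exon, whereas the footprint of severe EAE mouse 5 began at its first nucleotide and followed one that ended at the end of exon 1.

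Itgam (CD11b) and Itgb2 (CD18) encode the chains of Mac-1, an adhesion and complement receptor of microglia, monocytes and neutrophils. They had footprints in the same 3 mice, mild EAE mice 3 and 7 and severe EAE mouse 5, a set of mice that 203 genes shared when exonic footprints were counted. Covered nt in Itgam (chromosome 7, plus strand, 128062640 to 128118491) were 200, 330 and 751 in these 3 mice, and in Itgb2 (chromosome 10, plus strand, 77530252 to 77565708) 631, 348 and 434. The other 7 mice, naïve mice included, had 0 nt in both genes. The Itgb2 mean was 326.3 ± 316.1 nt (SD, n = 3) in mild EAE, and the Itgam mean 176.7 ± 166.2 nt (SD, n = 3). For both genes the exact permutation test gave p = 0.417 for all EAE against naïve mice and 0.4 for mild EAE against naïve mice, with an adjusted p of 1.

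The integrin footprints of different mice met at the same exon junctions. In Itgb2, all 3 mice had a footprint that ended at the end of exon 11 and another that began at the start of exon 12. The part covered in at least 2 of them was 102 nt in exon 11 and 72 nt in exon 12 (chr10:77558038-77558139 and chr10:77559479-77559550, plus strand), and neither holds a TAG.
Itgb2 exon 11 stretch: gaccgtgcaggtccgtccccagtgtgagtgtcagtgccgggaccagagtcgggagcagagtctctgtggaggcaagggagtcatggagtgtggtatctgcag
Itgb2 exon 12 stretch: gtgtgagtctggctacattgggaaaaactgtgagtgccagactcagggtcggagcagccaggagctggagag
In Itgam, mild EAE mice 3 and 7 had adjoining footprints in exons 7 and 8, and severe EAE mouse 5 covered the exon 7 part as well. The shared stretches were 67 nt and 130 nt (chr7:128080325-128080391 and chr7:128081605-128081734, plus strand), with 1 TAG each, in capitals.
Itgam exon 7 stretch: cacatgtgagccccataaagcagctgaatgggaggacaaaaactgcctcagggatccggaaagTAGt
Itgam exon 8 stretch: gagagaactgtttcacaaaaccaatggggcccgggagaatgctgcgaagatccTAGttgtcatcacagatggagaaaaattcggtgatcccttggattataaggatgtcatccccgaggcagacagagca
All 14 Itgam footprints also lay in exons of Gm49368, an overlapping gene model on the same strand, and cannot be assigned to Itgam alone. Itgax and Itgad, paralogs of Itgam, had no exonic footprint in any mouse.

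Ptprc (chromosome 1, minus strand, 138062861 to 138175708) had footprints in mild EAE mouse 3 only, 262 nt in 5 footprints, and 0 nt in the other 9 mice. They lay in coding sequence of exons 13, 14, 15, 23 and 24 of the 30 exons of Ptprc-203, and covered 7.57% of its coding sequence. None lay upstream of exon 13, on the side that carries the alternatively spliced exons of the CD45 isoforms. The pattern was that of 383 genes found in this mouse alone.

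**Figure D4:**
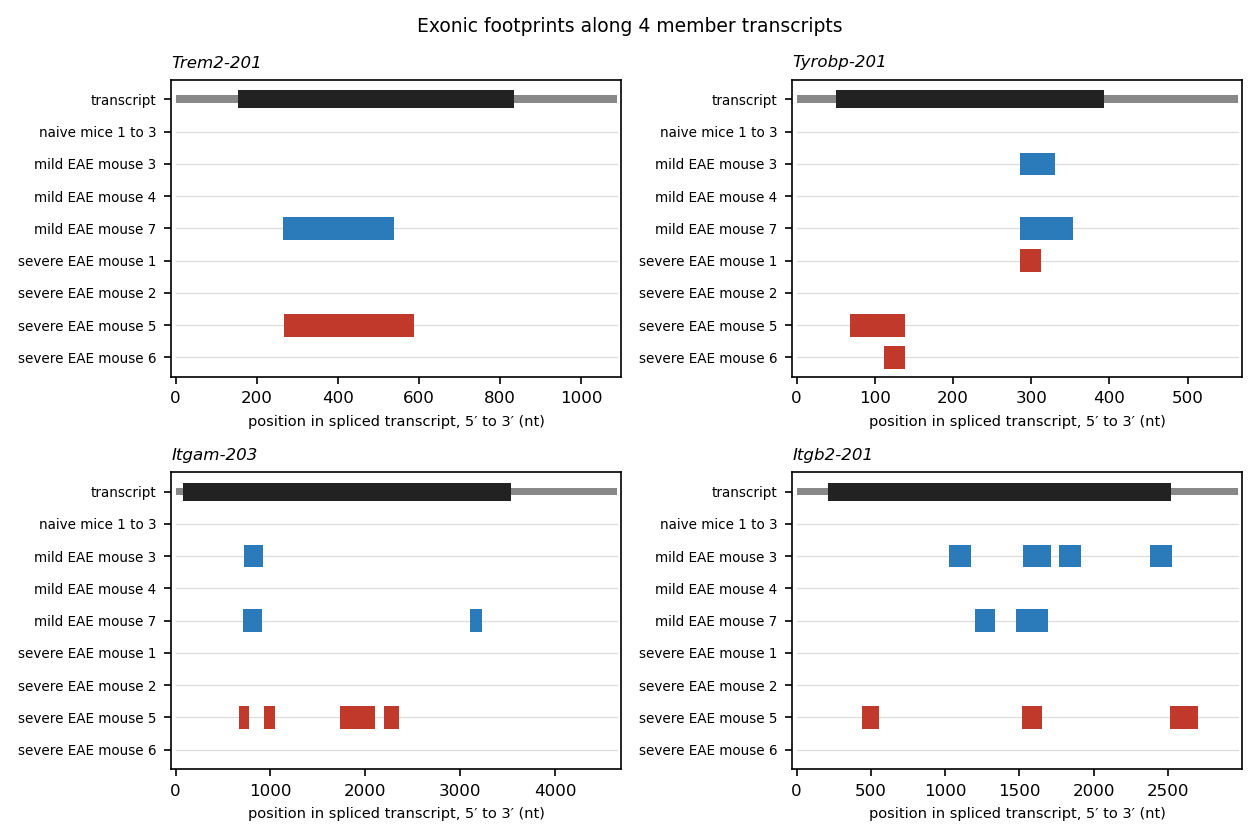
Exonic footprints along the spliced reference transcripts of Trem2, Tyrobp, Itgam and Itgb2, with position in nt on the horizontal axis and 1 row per EAE mouse. The black bar is the coding sequence and the grey bars are the UTRs; the footprints of different mice line up in Trem2 exon 2, in Tyrobp exons 2 and 4, at Itgam exon 7 and at the junction of Itgb2 exons 11 and 12, and the naïve rows are empty.

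As a share of the reference transcript, the nucleotides covered in any mouse ranged from 58.4% in Csf1r, 37.1% in Itgb2, 29.8% in Trem2, 24.6% in Tyrobp and 21.9% in Itgam to 15% in Tmem119, 14.5% in Cx3cr1, 5.57% in Ptprc and 0% in P2ry12. Within severe EAE mouse 5, which had the longest list, covered nt per 1000 nt of annotated exon were 260 in Csf1r, 149 in Itgam, 145 in Tmem119, 142 in Itgb2, 106 in Tyrobp, 64.9 in Trem2 and 56.2 in Cx3cr1. In mild EAE mouse 3 the order was different, with 207 in Itgb2, 132 in Csf1r, 66 in Tyrobp, 39.8 in Itgam and 14.3 in Ptprc. With 1 list per mouse, neighbours in these orders have no error of their own and are given as values.

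Exonic footprints of the 9 genes were mostly coding and mostly bounded by exon ends. The coding counts have no share over all genes beside them and are not read as particular to these genes. In mild EAE, 50 footprints lay in coding sequence and 2 in 3′ UTRs. In severe EAE, 32 footprints lay in coding sequence, 3 in 3′ UTRs and 2 in 5′ UTRs. Of these 89 footprints, 73 began or ended exactly at an annotated exon end, or 82%, beside 68.8% of all 97429 exonic footprints. Their median length was 89 nt, beside 97 nt over all genes. TAG occurred in 29 of the 89 (32.6%), and in 39.8% of the exonic footprints of EAE mice that lay in a single gene, over all genes. This corresponds to 3.86 TAG per 1000 nt in the 9 genes and 6.36 in those single-gene footprints, and for AGGT to 3.02 and 3.28 per 1000 nt. The 89 include the 14 Itgam footprints that overlap Gm49368, and the sets were not matched for coding sequence. The motif values are therefore not read as a difference. Both motifs were read on the gene's own strand, and a TAGGT counts for both.

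Stretches longer than 1 nt that 2 or more mice of one group had in common were found in 4 of the 9 genes in mild EAE (Csf1r, Tyrobp, Itgam and Itgb2, 11 stretches), in 2 in severe EAE (Csf1r and Tyrobp, 2 stretches) and in 1 in naïve mice (P2ry12, the 2 Med12l stretches). Of all genes with a footprint, 24.2% had such a stretch in mild EAE, 6.44% in severe EAE and 20.2% in naïve mice. With lists of such unequal length, the counts of the 9 genes are not compared between groups. All but 1 of the mild EAE stretches rested on mice 3 and 7 alone, and both severe EAE stretches on mouse 5 with 1 other mouse. Over all EAE mice, 24 exonic stretches in 5 genes were shared by at least 2 mice, 16 of them in Csf1r.

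Tests of covered length found no change that passed. Across all genes, 0 had an adjusted p below 0.05 in any comparison with naïve mice by the exact permutation test. For mild EAE the smallest p possible was 0.1, so no gene could pass. It was 0.0286 for severe EAE and 0.00833 for all EAE mice. Over 12354 and 13948 genes, adjustment could let genes pass only if very many sat at that minimum together. The lack of passing genes is therefore not read as a lack of change. Before adjustment, 416 genes had a p below 0.05 for all EAE against naïve mice over gene spans, 415 of them lower in EAE. In exons there were 129 such genes, 128 of them lower. Severe EAE mice 1, 2 and 6, with 2670, 209 and 673 footprints, had 0 nt in most genes. Few genes could therefore reach such a p as higher in EAE, and the counts are not read as a loss of binding. All 9 genes had 0 nt in the exons of every naïve mouse and so could not be lower in EAE there. Between severe and mild EAE, the exact permutation test gave p = 0.6 for Csf1r and 0.371 for Itgb2, and an adjusted p of 1 for each member tested.

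Genes with footprints in exactly the same mice were ranked by the cosine similarity of covered nt over the gene span in the 10 mice. For Csf1r, found in 6 mice, the nearest were Lilrb4a and the overlapping model Gm40645 (both 0.964, with the same total of 2413 nt) and Gm49339 (0.934), among 6 such genes. Lilrb4a encodes an inhibitory receptor of myeloid cells. For Itgb2, the nearest was Lgals3 (0.999), which encodes galectin-3 of activated phagocytes, followed by Gm7206 (0.997) and Lztr1 (0.995). For Itgam the nearest were Lats1 (0.999), Ulbp1 (0.997) and Gm6142 (0.997). Each ranking took the highest of 195 genes already found in the same 3 mice, so a value near 1 shows no shared function. In exons, Lgals3 had 0 nt in severe EAE mouse 5, where Itgb2 had 434 nt. For Cx3cr1 the nearest were Plxna1 (0.996), Lrfn5 (0.994) and Cabp1 (0.993), and for P2ry12 Chmp7 (0.976), Rusc1 (0.976) and Garnl3 (0.93). For P2ry12 all footprints behind the pattern, and for Cx3cr1 most of them, lay in exons of genes on the other strand.

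Other genes of these pathways and cell types were examined in lists chosen by name, also with earlier results of these data known. For each list, up to 4 of the genes with the most covered nt were named by rule, and the others were named after their values were seen. Among 16 ligands and signalling partners of the members, 5 had an exonic footprint in at least 2 EAE mice and in no naïve mouse (Csf1, Inpp5d, Irf8, Vav1 and Lyn), beside 13.1% of all genes. Without severe EAE mouse 5 the count was 3, with Irf8 and Lyn lost, and 6.95% of all genes. Apoe, a lipoprotein that Trem2 binds, had the opposite pattern, beside 1.76% of all genes. Its exons had 159 and 123 nt in naïve mice 1 and 3 and 0 nt in every EAE mouse. Without naïve mouse 1 or 3 it lost this pattern. Exons of Csf1, a ligand of Csf1r, had 167 and 417 nt in mild EAE mice 3 and 7 and 656 nt in severe EAE mouse 5. They had 0 nt in the other mice. Inpp5d encodes the phosphatase SHIP1, which restrains signalling through Tyrobp, and was covered over 147, 138 and 167 nt in the same 3 mice. Syk, the kinase that binds phosphorylated Tyrobp, had no exonic footprint, and Il34 and Cx3cl1, the neuronal ligands of Csf1r and Cx3cr1, had one in 1 mouse each, a severe EAE mouse.

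Among 15 homeostatic microglial genes, 2 had an exonic footprint in at least 2 EAE mice and in no naïve mouse. This pattern held for 13.1% of all genes with an exonic footprint, and only 9 of the 15 had one in any mouse. Without severe EAE mouse 5 the count stayed at 2, with 6.95% of all genes. With so few genes, the share is not read as a difference. Tgfbr1 encodes a receptor for the cytokine that maintains the microglial state. Its exons were covered over 307 and 147 nt in mild EAE mice 4 and 7 and 397 nt in severe EAE mouse 5. They had 0 nt in the other mice. Over its whole span, Tgfbr1 had 7077 covered nt in all mice together, of which 851 were exonic. Sparc, which astrocytes also express, had footprints in all naïve mice. The number of these 15 genes with an exonic footprint was 1, 2 and 2 for the naïve group and 3, 4 and 4 for mild EAE. In severe EAE mice 1, 2, 5 and 6 it was 1, 1, 9 and 1. Of the 15, 6 had none in any mouse, among them Aif1, P2ry13 and Siglech.

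Among 15 genes of activated phagocytes, 6 had an exonic footprint in at least 2 EAE mice and in no naïve mouse, beside 13.1% of all genes. They were Lyz2, Gpnmb, Cd68, Cd9, Cst7 and Lgals3. Lyz2, the lysozyme of myeloid cells, had 557 and 239 nt in mild EAE mice 3 and 4 and 156 and 408 nt in severe EAE mice 1 and 5. Axl encodes a receptor for the uptake of dying cells. Its exons had 127 nt in naïve mouse 2, 416, 26 and 282 nt in the mild EAE mice and 700 nt in severe EAE mouse 5. In exons, Axl was thus found in all mild EAE mice but also in 1 naïve mouse, as was Vim. Over its whole span, Axl had 3039 covered nt in all mice together, of which 1551 were exonic. Gpnmb had 274, 251 and 320 nt in the mild EAE mice and 380 nt in severe EAE mouse 5. The summed exonic coverage of the list was 0 to 357 nt in naïve, 628 to 2973 nt in mild EAE and 0 to 3985 nt in severe EAE mice. Ccr2, Cybb, Itgax and Lpl had no exonic footprint in any mouse. The part of such cells in the coverage of the 9 genes was not tested.

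Markers of other leukocytes were nearly absent from the lists. None of 12 T cell genes, Cd3e, Cd4 and Lck included, and none of 10 neutrophil genes, S100a8 and S100a9 included, had an exonic footprint in any mouse. Of 8 B cell genes, Cd22 and Blnk had one in 1 mild EAE mouse each. Among 14 leukocyte integrins, ligands and adaptors, Itgb1 alone had the pattern of EAE mice without naïve mice, beside 13.1% of all genes. Tln1 was found in all naïve mice.

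Genes of neurons, oligodendrocytes and astrocytes were footprinted in every naïve mouse. Of 10 neuronal genes, 9, 6 and 9 had an exonic footprint in the naïve mice, with 8 in each mild EAE mouse, and none had footprints in at least 2 EAE mice and no naïve mouse. Of 10 oligodendrocyte genes, 8, 4 and 7 were footprinted in naïve mice, with 6, 6 and 9 for mild EAE. Of 10 astrocyte genes, these numbers were 5, 6 and 7 and 8, 5 and 5. In each of the last 2 lists, 1 gene had a footprint in at least 2 EAE mice and in no naïve mouse, Ugt8a and Aldh1l1. The share of all genes with this pattern was 13.1%. Ugt8a lost it without severe EAE mouse 5 or mild EAE mouse 7. The astrocyte gene Gjb6 had the opposite pattern, beside 1.76% of all genes. Its exons had 256 and 158 nt in naïve mice 2 and 3 and 0 nt in every EAE mouse. Without naïve mouse 2 or 3 it lost this pattern.

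**Figure D5:**
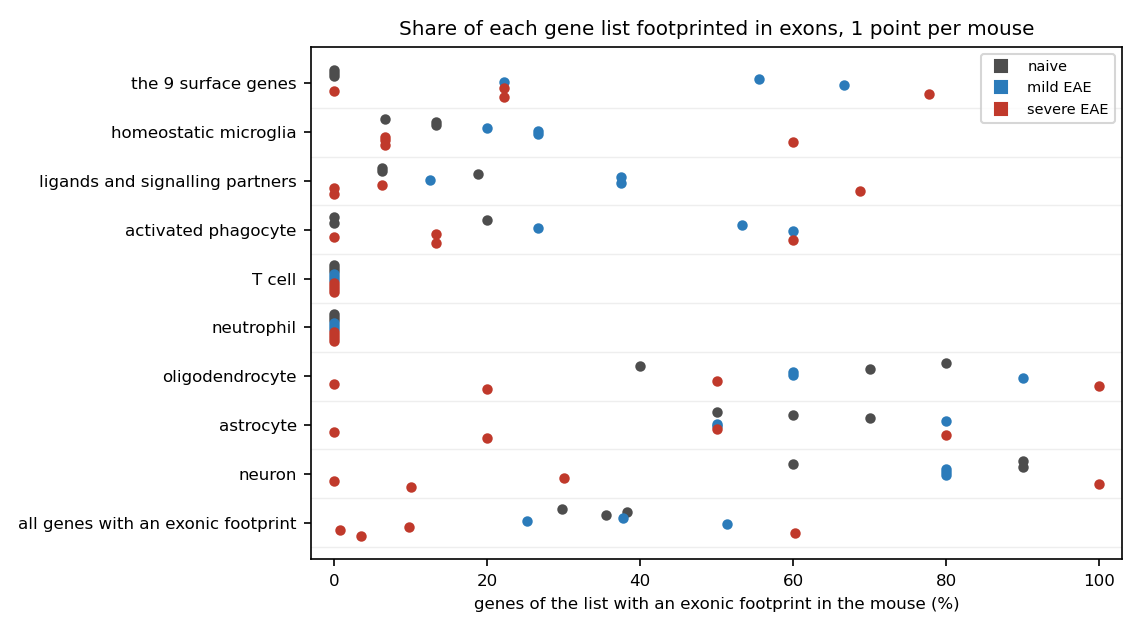
Percentage of the genes of each list with an exonic footprint, with 1 point per mouse, coloured by group, and the 11189 genes with an exonic footprint in any mouse in the bottom row. The naïve points of the 9 surface genes lie at 0, whereas those of all genes lie between 29.8% and 38.3%; T cell and neutrophil genes are at 0 in every mouse.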

How the data were processed

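hnRNP A1 CLIPseq libraries of 10 mice (3 naïve, 3 mild EAE, 4 severe EAE) were analysed, grouped by treatment and clinical score in the labels. Matched inputs and 2 pooled IgG samples were not analysed here. The authors demultiplexed reads with bcl2fastq 2.19.0.316, trimmed them with fastp, assembled them with rnaSPAdes, aligned contigs to GRCm38 with minimap2 2.17, removed input and IgG sites and merged the rest with bedtools (versions from the submitters' processing notes). The deposited values are start and end coordinates, with no score, strand or read count, so footprints of overlapping genes are not separated by strand, removal of input sites could drop RNA that is abundant in a mouse, and the depth behind a footprint is unknown.

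Footprints were intersected with GENCODE release M21 (bedtools 2.31.1). A footprint was exonic if its midpoint lay in an exon of the gene. Covered nt per gene were compared with a two-sided exact permutation test over mice, adjusted by Benjamini-Hochberg over all genes with a footprint in the mice compared. The test was run on simulated data first. Nothing in the labels ties mice of the same number across groups. All 9 genes were named. Of other lists, up to 4 genes with the most covered nt were named by rule. Members and lists were chosen with earlier results of these data known. Sequences were read from the RefSeq copy of GRCm38 patch 6. Alternatives covered the overlap (20 nt), span (1000 nt added), length (50 nt), other genes, exons, scale and each mouse left out. Of all footprints, 568 lay on unplaced sequences and were not matched. The values of 1 gene of these lists are not reported here.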

Additional observations from a re-analysis of the deposited data

Results flagged for a closer look

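In severe EAE, mouse 5 lay far from the other 3 mice in 7 of the 9 genes and in the length of its list, by the ratio of the gap to the range of the 4 mice. It had 31870 footprints, and covered 1504 nt in Csf1r, 545 nt in Cx3cr1, 432 nt in P2ry12, 336 nt in Tmem119, 321 nt in Trem2, 751 nt in Itgam and 434 nt in Itgb2 over the gene spans. Of 10 such comparisons, 8 passed the 95% limit. Chance passes it in about 1 of 20 separate groups of continuous values, which these are not, since all 8 concern the same mouse and in 6 of them the other 3 mice are at 0. The length of the list of this mouse moves with all 7 values. Their link to disease severity was not tested.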

How the results depend on the processing

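No member passed the adjusted threshold in any setting (lowest adjusted p 0.49), and 346 of 359 alternative differences of members had the sign and call of the main values. The sign turned in 2 genes, Cx3cr1 and P2ry12, both with footprints of genes on the other strand. All other members had 0 nt in every naïve mouse, so their differences from naïve mice could not turn negative. In mild EAE the exact permutation test could not go below 0.1, so no call could change there. The 346 are therefore not read as a measure of stability. For Cx3cr1, counting only footprints free of other genes gave 22.33, 42 and 7.583 nt for all, mild and severe EAE minus naïve, and only exonic ones 78, 97.67 and 63.25 nt. Leaving out a mouse gave −198.5 to −96.79, −187.3 to −100.8 and −247.3 to −65.67 nt. For P2ry12, leaving out a mouse gave −75.17 to 9.786 nt for all EAE and −98 to 46 nt for severe EAE, scaling per 1000000 covered nt gave −18.39, and log2(nt + 1) gave −2.616. Paired by replicate number as a block (naïve and severe EAE mice 1 and 2), P2ry12 differed by −75.5 nt. These numbers do not pair the mice by any label.

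Counts rested on few mice. Leaving out each mouse gave 1 to 4 genes in at least 2 mild EAE mice and no naïve mouse (1 to 5 in exons), 4 to 5 in at least 2 EAE mice (5 to 6 in exons) and 0 to 1 in at least 2 naïve mice and no mild EAE mouse, the 1 being P2ry12 without mild EAE mouse 4. Genes with a shared stretch ranged from 1 to 4 in mild EAE, 0 to 2 in severe EAE and 0 to 1 in naïve mice. With footprints free of other genes or in exons, no gene had a stretch shared by naïve mice (0 genes in both settings). In severe EAE, 1 gene had one with footprints of at least 50 nt, and 0 genes had one in at least 3 mice. The cause was not tested beyond these settings. The settings for exonic counts were added after the data had been seen, as was leaving out severe EAE mice 2 and 6 together, which gave 5 genes over spans and 6 in exons. Of the other gene lists, also run without each mouse after the data had been seen, the count in at least 2 EAE mice and no naïve mouse ranged from 3 to 7 for ligands and partners, 5 to 9 for activated phagocytes, 2 to 3 for homeostatic microglia, 1 to 2 for integrins, 1 to 3 for astrocytes and 0 to 2 for oligodendrocytes. List length limits what can be seen: 209 and 673 footprints can show few genes.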
